A study of Mus musculus with 16 samples.

Results

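Transcripts of the acetylcholine receptor and of the neuromuscular junction were followed in hamstring muscle of mice with Illumina BeadChip arrays. The set comprised every probe whose symbol in the deposited probe table was Chrna1, Chrnb1, Chrnd, Chrne, Chrng, Chrna9, Musk, Rapsn, Ache or Ncam1, which gave 18 probes for 10 genes of 25697 probes for 18097 symbols. Female mice received spinal cord injury (SCI) between vertebrae T12-13, or sham surgery, and their muscle was injected with saline or with cardiotoxin (CDTX), a cobra venom peptide that destroys muscle fibres. The 4 groups, of 4 arrays each, were Sham+Saline, SCI+Saline, Sham+CDTX and SCI+CDTX. All muscle was sampled 2 days after surgery. Per the series design, heterotopic bone forms in muscle in SCI+CDTX and in none of the other groups. Strain and age are not given in the sources used here.

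At the neuromuscular junction, acetylcholine released by the motor nerve opens a receptor built from the alpha1, beta1, delta and epsilon subunits (Chrna1, Chrnb1, Chrnd and Chrne). Fetal muscle uses the gamma subunit (Chrng) in place of epsilon. The receptor kinase MuSK (Musk) and the scaffold protein rapsyn (Rapsn) cluster receptors under the nerve ending, acetylcholinesterase (Ache) ends the signal, and the adhesion molecule NCAM (Ncam1) marks synapses, muscle precursors and immature fibres. In muscle that loses its nerve input, the receptor genes are known to become active along the whole fibre under the control of myogenin, which binds E-boxes in their promoters, whereas the epsilon gene depends on signals from the nerve and carries an N-box. The alpha9 subunit (Chrna9) is best known from the hair cells of the inner ear.

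The promoters of 4 receptor genes are shown first: Chrna9, Chrng and Chrna1, which rose most among the receptor genes after SCI, and Chrne, which fell and whose promoter also held an N-box match. Promoter sequence came from a set of RefSeq promoters (GRCm38.p6) in which 7 of the 10 genes were matched, and covers the 250 bases before the annotated start site. Capitals mark CAGCTG, the E-box with a GC core, and CCGGAA, the N-box core. Both strands were searched, and each CAGCTG is also a match to the general E-box CANNTG.
Chrna1 (chr2:73580339-73580588, minus strand): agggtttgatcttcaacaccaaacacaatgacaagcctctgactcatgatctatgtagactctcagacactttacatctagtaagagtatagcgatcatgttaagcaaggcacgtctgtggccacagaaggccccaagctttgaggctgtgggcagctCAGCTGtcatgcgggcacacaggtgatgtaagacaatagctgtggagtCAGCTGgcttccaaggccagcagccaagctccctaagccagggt
Chrng (chr1:87205561-87205810, plus strand): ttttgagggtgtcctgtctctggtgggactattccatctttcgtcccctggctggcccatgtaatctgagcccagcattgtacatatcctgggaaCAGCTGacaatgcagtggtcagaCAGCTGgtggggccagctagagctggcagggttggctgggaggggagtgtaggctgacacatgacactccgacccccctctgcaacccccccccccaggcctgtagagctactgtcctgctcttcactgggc
Chrne (chr11:70619195-70619444, minus strand): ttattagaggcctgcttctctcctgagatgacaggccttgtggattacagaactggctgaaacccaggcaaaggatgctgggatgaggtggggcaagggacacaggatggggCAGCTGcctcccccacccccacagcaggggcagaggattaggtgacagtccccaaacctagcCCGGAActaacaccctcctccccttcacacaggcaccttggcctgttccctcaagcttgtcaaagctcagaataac
Chrna9 (chr5:65966874-65967123, plus strand): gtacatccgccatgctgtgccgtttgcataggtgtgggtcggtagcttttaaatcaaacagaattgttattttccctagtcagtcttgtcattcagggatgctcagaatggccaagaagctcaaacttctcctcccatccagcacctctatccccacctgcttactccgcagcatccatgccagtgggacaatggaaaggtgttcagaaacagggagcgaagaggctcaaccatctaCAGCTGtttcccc
The E-box CAGCTG occurred in 5 of the 7 promoters, against 13% of 32841 mouse promoters of the same length. Chrna1 held it 44 and 92 bases upstream of the start and Chrng 132 and 155 bases upstream, while 1.26% of all promoters held 2 or more copies. Chrne held a single copy 138 bases upstream, Chrna9 13 bases upstream and Musk 68 bases upstream. Chrnb1 and Ache held only general E-boxes. The general E-box CANNTG was found in 7 of the 7 promoters and in 66.2% of all promoters. The N-box core CCGGAA was found in 1 of the 7, in Chrne at 76 bases upstream, against 12% of all promoters. These are letter matches and not measured binding sites.

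**Figure D1:**
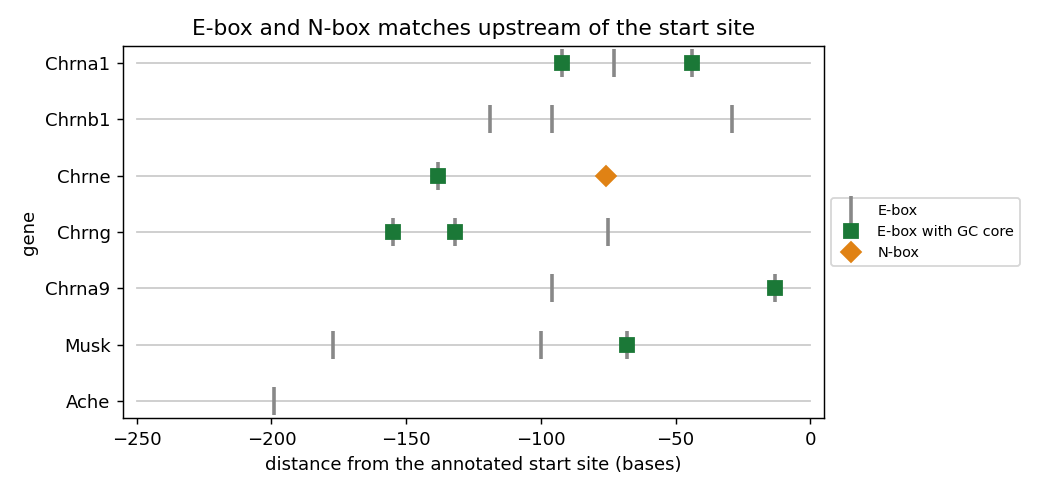
Position of motif matches in the 250 bases before the annotated start site (horizontal axis, bases; 0 is the start) for the 7 genes with a promoter in the table. Grey bars mark the E-box CANNTG, green squares the E-box CAGCTG and the orange diamond the N-box core CCGGAA, which only the Chrne promoter of these 7 holds.

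Levels are log2 intensities after background correction and quantile normalization, and a difference of 1 is a doubling. A probe was called when its limma adjusted p was under 0.05 over 14763 probes that were detected (detection p under 0.05) on at least 3 arrays. All 18 probes of the set passed that filter. Their detection differed widely, from 4 of 15 arrays for the Chrnd probe ILMN_1229136 to 15 of 15 for 11 probes. The labels state that the authors left SCI+CDTX 2 out of their final analysis, so comparisons used 15 arrays, with 3 in SCI+CDTX. Normalized together with the others, SCI+CDTX 2 lay outside the range of the other SCI+CDTX arrays for 15 of the 18 probes. All SCI arrays were on 1 slide and all sham arrays on another, so an effect of surgery cannot be told apart from one of slide, whereas CDTX and saline were compared within a slide. Mean raw intensity was 230.5 to 277 on the Sham+Saline arrays and 319.9 to 373.1 on the other 12 arrays. A score summarising how 2 probes of the same gene diverged, computed over 2776 genes outside the set, was 18.3 to 20.6 on the Sham+CDTX arrays, 14.8 on SCI+CDTX 2 and -14 to -3.5 on the other 11. Results that use Sham+CDTX are therefore also given with that score as a covariate over all 16 arrays. The score largely coincides with the Sham+CDTX group, so it takes up much of the same difference. Counts under alternative settings, such as the score, median scaling or leaving out an array, have no share of all probes beside them. The same holds for counts at an unadjusted p and for those from the authors' own p-values. Calls lost or gained there cannot be read as particular to the set. Arrays of a group carry only a number in the labels, so p-values measure the spread between these samples, and in whole muscle fewer cells of a type cannot be told apart from less RNA per cell.

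**Figure D2:**
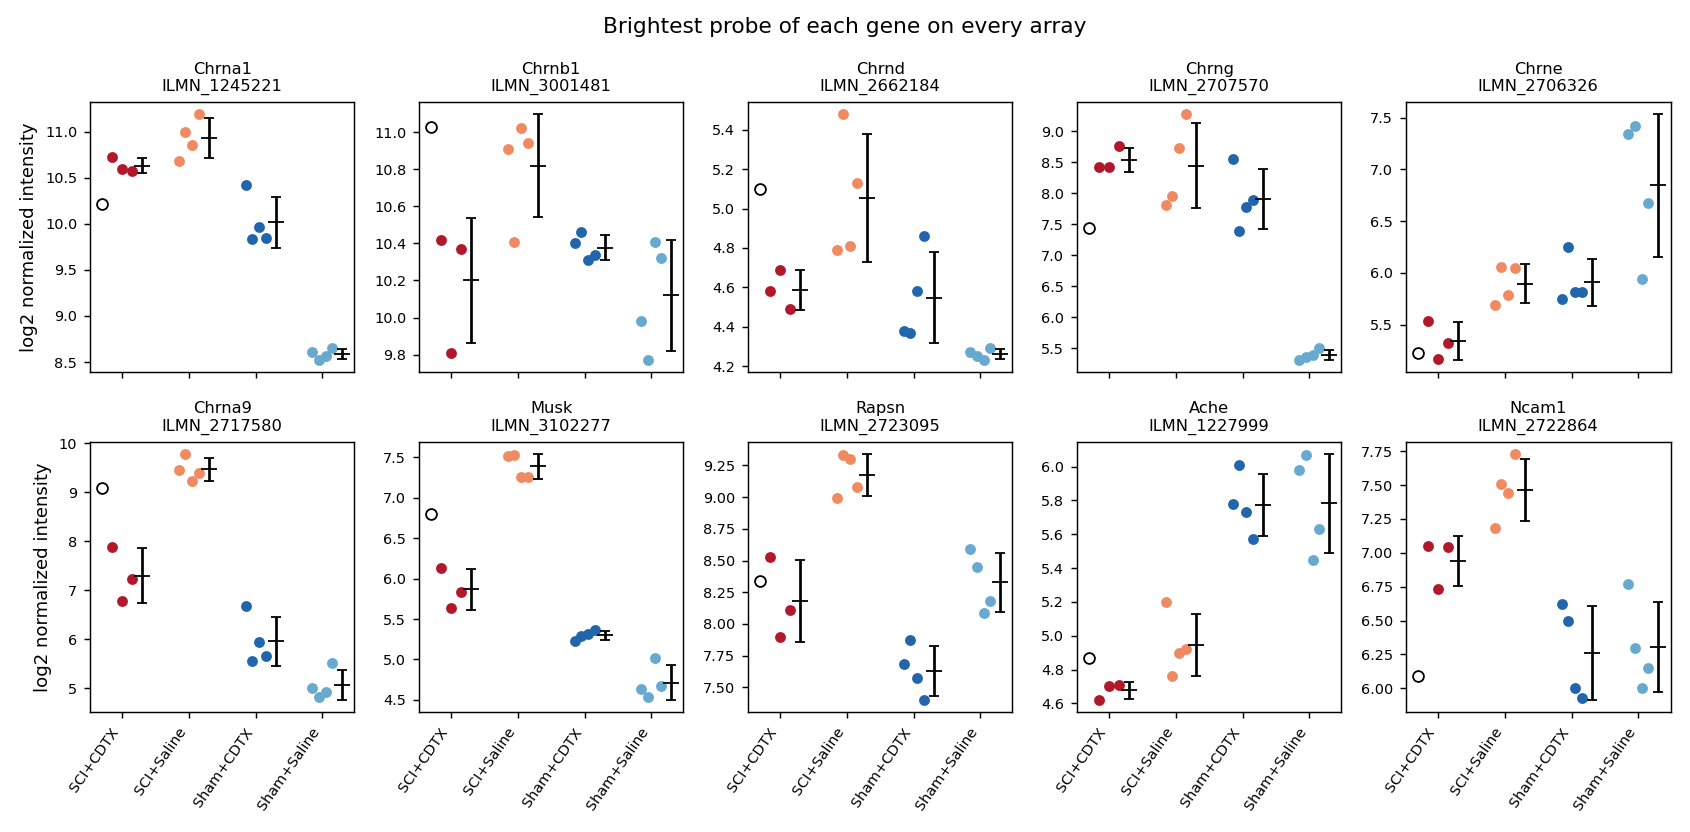
Log2 normalized intensity (vertical axis) of the brightest probe of each gene on every array of the 4 groups. Filled points are the 15 arrays of the comparisons, black bars the mean ± SD, and the open point the array left out, SCI+CDTX 2, normalized with all 16. For Chrna1 and Chrng the Sham+Saline arrays sit below every other array, for Chrna9 and Musk SCI+Saline sits above every other filled point, and for Ache both SCI groups sit below both sham groups.

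In saline-injected muscle, most of the set was higher after SCI. Of the 18 probes, 14 were higher and 2 lower in SCI+Saline than in Sham+Saline, where 14.8% of all tested probes were called higher and 14.6% lower, 29.5% in all. The median log2 fold change was 0.94 over the 18 probes and -0.01 over all probes. For 13 probes every SCI+Saline array was above every Sham+Saline array, which held for 11.7% of all probes, and for 1 probe every array was below, which held for 11.9%. All 10 genes had at least 1 called probe. The genes that rose were Chrna9, Chrng, Musk, Chrna1, Rapsn, Ncam1, Chrnb1 and Chrnd, and the genes that fell were Chrne and Ache.

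The fetal subunit gene Chrng had 1 probe (ILMN_2707570, chromosome 1), whose first 30 bases are printed to identify it.
Chrng ILMN_2707570: gggccatgctgtttgtagagctgtatcccg
Its log2 levels were 5.31, 5.36, 5.4 and 5.5 in Sham+Saline and 7.81, 7.96, 8.73 and 9.28 in SCI+Saline. Every SCI+Saline array was above every Sham+Saline array. The log2 fold change was 3.05 ± 0.27 (SE), an 8.29-fold rise (limma, adjusted p = 1.44e-07). In Sham+CDTX Chrng stood at 8.56, 7.4, 7.78 and 7.89, above every Sham+Saline array, and rose by 2.51 ± 0.27 (SE; limma, adjusted p = 4.22e-07). In SCI+CDTX it stood at 8.43, 8.42 and 8.77, within the span of SCI+Saline. CDTX gave no called difference in SCI muscle, where the log2 fold change was 0.1 with a 95% interval of -0.51 to 0.7 (limma, adjusted p = 0.822). SCI+CDTX and Sham+CDTX differed by 0.63 ± 0.29 (SE; limma, adjusted p = 0.111). This difference was -0.83 with the probe difference score (limma, adjusted p = 0.412). It was called without Sham+CDTX 1 (0.85; limma, adjusted p = 0.0298) and without SCI+Saline 4 (limma, adjusted p = 0.0479). It was also called over all 16 arrays with array weights (0.68; limma, adjusted p = 0.0156) and with only the groups compared (0.63; limma, adjusted p = 0.0364). With each slide normalized separately it was 0.82 (limma, adjusted p = 0.0373), where the median of all probes was 0.1. Only Sham+Saline was separated from the other groups, which had no settled order.

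The adult subunit gene Chrne moved the other way. Its probe (ILMN_2706326, chromosome 11) is printed whole because it is the only probe of the gene on the array.
Chrne ILMN_2706326: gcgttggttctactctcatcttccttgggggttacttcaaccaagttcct
Log2 levels were 7.34, 7.42, 5.94 and 6.68 in Sham+Saline, 5.69, 6.06, 5.79 and 6.05 in SCI+Saline, 5.75, 6.25, 5.82 and 5.82 in Sham+CDTX, and 5.54, 5.17 and 5.32 in SCI+CDTX. Sham+Saline spread widely (SD 0.69), and its lowest array overlapped both SCI+Saline and Sham+CDTX. Chrne fell by 0.95 on the log2 scale in SCI+Saline against Sham+Saline (limma, adjusted p = 0.00611), by 0.93 in Sham+CDTX against Sham+Saline (limma, adjusted p = 0.00353) and by 1.5 in SCI+CDTX against Sham+Saline (limma, adjusted p = 0.000106). With arrays scaled to a common median in place of quantile normalization, the first was -0.57 (limma, adjusted p = 0.0554) and the second -0.13 (limma, adjusted p = 0.651), so both calls were lost. The third was -0.79 (limma, adjusted p = 0.00996).

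Because Chrng and Chrne were measured on the same arrays, a shift of a whole array cancels in their difference. Levels of different probes have no common scale, so only changes in this difference are read. The log2 level of Chrng minus that of Chrne was -1.45 ± 0.74 in Sham+Saline (SD, n = 4), 2.55 ± 0.64 in SCI+Saline (SD, n = 4), 2 ± 0.68 in Sham+CDTX (SD, n = 4) and 3.2 ± 0.29 in SCI+CDTX (SD, n = 3). Relative to Sham+Saline it was 4 higher in SCI+Saline, 3.45 higher in Sham+CDTX and 4.65 higher in SCI+CDTX. Each of these had a two-sided exact permutation p of 0.0286, the smallest these group sizes allow, and 0.0409 after Benjamini-Hochberg adjustment over 10 such comparisons. SCI+CDTX and SCI+Saline differed by 0.65 (exact permutation p = 0.229, adjusted 0.229), and SCI+CDTX and Sham+CDTX by 1.2 (exact permutation p = 0.0571, adjusted 0.0634). Without background correction the changes from Sham+Saline were smaller, at 1.85 for Sham+CDTX, 2.28 for SCI+Saline and 2.55 for SCI+CDTX, and after median scaling they were 3.22, 3.96 and 4.43. With the probe difference score the SCI+CDTX and Sham+CDTX groups differed by 0.09. Chrng gained on Chrne with SCI alone, with CDTX alone and with both under each of these settings.

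**Figure D3:**
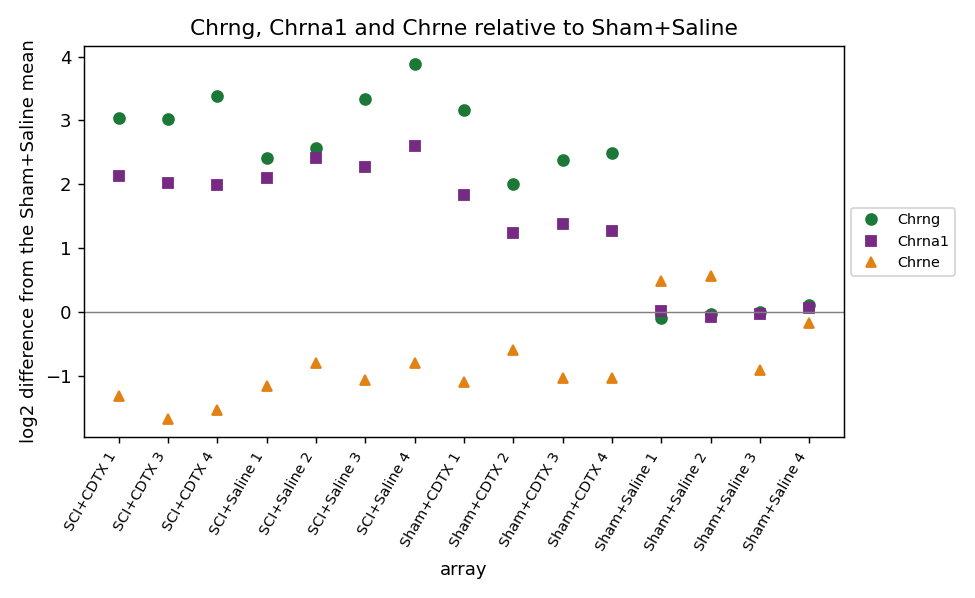
Log2 difference of each array (horizontal axis) from the Sham+Saline mean of the same probe (vertical axis) for Chrng, Chrna1 and Chrne. Chrng and Chrna1 are above 0 on all 11 arrays outside Sham+Saline and Chrne is below 0 on all 11.

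Chrna1 encodes the subunit that binds acetylcholine and had 3 probes (chromosome 2). Its brightest probes, ILMN_1245221 and ILMN_2733656, are shifted by a single base and share 49 of 50 bases, so they are repeat readings of the same stretch and not independent evidence. Their first 30 bases are printed with the shared bases in capitals.
Chrna1 ILMN_1245221: gTGTTCTACATGTCCTACATGTTAATGAGA
Chrna1 ILMN_2733656: TGTTCTACATGTCCTACATGTTAATGAGAg
They correlated at r = 0.994 over the 15 arrays and differed by at most 0.31. For ILMN_1245221 the log2 levels were 8.61, 8.52, 8.56 and 8.65 in Sham+Saline, 10.68, 11, 10.86 and 11.19 in SCI+Saline, 10.42, 9.83, 9.96 and 9.85 in Sham+CDTX, and 10.72, 10.6 and 10.57 in SCI+CDTX. Every array outside Sham+Saline lay above all 4 Sham+Saline arrays. Chrna1 rose by 2.35 ± 0.15 (SE) on the log2 scale in SCI+Saline against Sham+Saline, a 5.09-fold rise (limma, adjusted p = 2.27e-09), and by 1.43 ± 0.15 (SE) in Sham+CDTX against Sham+Saline (limma, adjusted p = 3.35e-07). SCI+CDTX and SCI+Saline overlapped and differed by -0.3, with a 95% interval of -0.64 to 0.03 (limma, adjusted p = 0.141). After median scaling this difference was -0.5 and was called (limma, adjusted p = 0.0227). SCI+CDTX was above Sham+CDTX by 0.62 (limma, adjusted p = 0.00679), which became 0.16 with the probe difference score (limma, adjusted p = 0.86). The third probe, ILMN_1239269, lies further 3′ in the transcript and was detected on 0 of 4 Sham+Saline arrays. Its bound was at least 2.05-fold higher in SCI+Saline than in Sham+Saline and at least 2.6-fold higher in SCI+CDTX, that is, the bright mean over the dim group's detection limit. In SCI+CDTX against SCI+Saline this probe went the other way, at 0.35 (limma, adjusted p = 0.0836), and at 0.72 after median scaling (limma, adjusted p = 0.00253), so the Chrna1 probes disagree about CDTX in SCI muscle.

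Chrna9 had the largest change of the 10 genes after SCI and behaved differently from Chrna1 and Chrng once CDTX was added. It had a single probe (ILMN_2717580), assigned in the probe table to a predicted RefSeq transcript with no chromosome listed, and it is printed whole.
Chrna9 ILMN_2717580: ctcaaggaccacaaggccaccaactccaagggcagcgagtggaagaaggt
Log2 levels were 5.01, 4.82, 4.92 and 5.51 in Sham+Saline, where the probe was detected on 3 of 4 arrays, and 9.46, 9.78, 9.23 and 9.39 in SCI+Saline. No array of the other groups reached the lowest SCI+Saline array. The rise was 4.4 ± 0.25 (SE) on the log2 scale, or 21.1-fold (limma, adjusted p = 4.21e-10). In SCI+CDTX the levels were 7.88, 6.77 and 7.23, below SCI+Saline by 2.17 (limma, log2 fold change -2.17 ± 0.27 SE, adjusted p = 5.69e-06), and in Sham+CDTX they were 6.67, 5.56, 5.94 and 5.66. SCI+CDTX stayed above Sham+CDTX by 1.34 (limma, adjusted p = 0.000848) and above Sham+Saline by 2.23 (limma, adjusted p = 1.68e-06). The order was SCI+Saline, SCI+CDTX, Sham+CDTX and Sham+Saline, and each neighbouring pair was called apart. The last pair is the least stable, since Sham+CDTX exceeded Sham+Saline by 0.89 (limma, adjusted p = 0.00542), by 0.32 without background correction (limma, adjusted p = 0.089) and by -1.46 with the probe difference score (limma, adjusted p = 0.11). In the authors' deposited table the group means of this probe were 13.8 for Sham+Saline, 59.6 for Sham+CDTX, 176.4 for SCI+CDTX and 682.2 for SCI+Saline. The excluded array SCI+CDTX 2 stood at 9.08 when all 16 arrays were normalized together. The rest of its group spanned 6.81 to 7.92 and SCI+Saline 9.27 to 9.81. With it included, the fall in SCI+CDTX was 1.73 in size (log2 fold change -1.73; limma, adjusted p = 0.00103).

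Musk, the receptor kinase that agrin activates, followed the order of Chrna9. Its brighter probe (ILMN_3102277, chromosome 4) stood at 4.63, 4.53, 5.02 and 4.67 in Sham+Saline, where 1 of 4 arrays detected it, and at 7.51, 7.53, 7.26 and 7.25 in SCI+Saline. It stood at 6.13, 5.63 and 5.84 in SCI+CDTX and at 5.23, 5.29, 5.32 and 5.36 in Sham+CDTX. None of the 4 groups overlapped another. Musk rose by 2.68 ± 0.14 (SE) on the log2 scale in SCI+Saline against Sham+Saline, or 6.4-fold (limma, adjusted p = 2.54e-10), and was lower by 1.52 in SCI+CDTX than in SCI+Saline (log2 fold change -1.52; limma, adjusted p = 1.3e-06). Sham+CDTX was above Sham+Saline by 0.59 (limma, adjusted p = 0.00222), which turned to -0.74 with the probe difference score (limma, adjusted p = 0.128). SCI+CDTX was above Sham+CDTX by 0.57 (limma, adjusted p = 0.0093), and by 0.43 without SCI+CDTX 1 (limma, adjusted p = 0.0668). The dimmer probe, ILMN_1259616, was detected on 5 of 15 arrays and on none of the 8 sham arrays. Its bound was at least 1.09-fold higher in SCI+Saline than in Sham+Saline (limma, adjusted p = 0.00446).

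Rapsn, whose product anchors receptors beneath the nerve ending, had 3 probes (chromosome 2), detected on every array. The brightest, ILMN_2723095, stood at 8.59, 8.45, 8.09 and 8.18 in Sham+Saline, 8.99, 9.33, 9.3 and 9.08 in SCI+Saline, 7.68, 7.87, 7.57 and 7.4 in Sham+CDTX, and 8.53, 7.9 and 8.11 in SCI+CDTX. SCI+Saline was above every other array. The 3 probes rose by 0.84 to 1.27 on the log2 scale in SCI+Saline against Sham+Saline (limma, adjusted p = 0.000235 to 0.000892). In SCI+CDTX against SCI+Saline the 3 probes gave -0.99, -1.2 and -1.14, all called lower (limma, adjusted p = 0.000186 to 0.000477). In sham muscle the probes disagreed about CDTX, at -0.7, -0.38 and 0.01. The first was called (limma, adjusted p = 0.00149) but was 0.03 after median scaling (limma, adjusted p = 0.875) and lost its call with the probe difference score (limma, adjusted p = 0.253).

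The remaining subunits of the adult receptor moved less. Chrnb1 (chromosome 11) rose by 0.7 at its brighter probe, ILMN_3001481, and by 0.82 at ILMN_2685921 in SCI+Saline against Sham+Saline (limma, adjusted p = 0.00574 and 0.000285). ILMN_2685921 stood at 8.71, 8.39, 8.3 and 8.45 in Sham+Saline, 9.26, 9.2, 9.25 and 9.41 in SCI+Saline, 8.84, 8.95, 8.79 and 8.78 in Sham+CDTX, and 8.7, 8.06 and 8.42 in SCI+CDTX. SCI+Saline was above every array of the other groups, and SCI+CDTX overlapped Sham+Saline. In SCI+CDTX against SCI+Saline the probes gave -0.62 and -0.88 (limma, adjusted p = 0.0133 and 0.000171). The -0.62 of ILMN_3001481 became -0.43 without SCI+CDTX 3 (limma, adjusted p = 0.113) and -0.42 with the excluded array (limma, adjusted p = 0.136). Chrnd (chromosome 1), for the delta subunit, was near background. Its brighter probe, ILMN_2662184, was detected on 4 of 4 SCI+Saline arrays, 2 of 3 SCI+CDTX arrays, 2 of 4 Sham+CDTX arrays and 0 of 4 Sham+Saline arrays. Its level was at least 1.21-fold higher in SCI+Saline than in Sham+Saline (limma, adjusted p = 0.000846). Chrnd was called lower in SCI+CDTX than in SCI+Saline (log2 fold change -0.47; limma, adjusted p = 0.0324), and this call was lost on leaving out SCI+Saline 2 (-0.33; limma, adjusted p = 0.106), SCI+Saline 4 or any SCI+CDTX array. Its other probe, ILMN_1229136, was called in no comparison.

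Ache, the enzyme that breaks down acetylcholine, differed mainly between the surgeries. Its probe (ILMN_1227999, chromosome 5) stood at 5.98, 6.07, 5.45 and 5.63 in Sham+Saline and 5.78, 6.01, 5.73 and 5.57 in Sham+CDTX. It stood at 5.2, 4.76, 4.9 and 4.92 in SCI+Saline and 4.62, 4.7 and 4.71 in SCI+CDTX. All 7 SCI arrays lay below all 8 sham arrays. Ache was lower by 0.84 in SCI+Saline than in Sham+Saline (log2 fold change -0.84; limma, adjusted p = 0.000453) and by 1.1 in SCI+CDTX than in Sham+CDTX (log2 fold change -1.1; limma, adjusted p = 7.6e-05). With the probe difference score the second was -1.05 (limma, adjusted p = 0.0608). CDTX gave -0.01 in sham muscle, with a 95% interval of -0.34 to 0.31, and -0.27 in SCI muscle, with an interval of -0.62 to 0.08, neither called. After median scaling, however, Ache was higher by 0.69 in Sham+CDTX than in Sham+Saline (limma, adjusted p = 0.00027). Surgery coincides with slide, so this pattern cannot be told apart from a slide effect on the probe.

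Ncam1 (chromosome 9) rose at its brighter probe, ILMN_2722864. Log2 levels were 6.77, 6.3, 6 and 6.15 in Sham+Saline, 7.18, 7.51, 7.44 and 7.73 in SCI+Saline, 6.62, 6.5, 6 and 5.93 in Sham+CDTX, and 7.05, 6.73 and 7.04 in SCI+CDTX. The SCI groups were the higher ones, with SCI+CDTX overlapping the highest Sham+Saline array. The log2 fold change was 1.16 ± 0.19 (SE) in SCI+Saline against Sham+Saline (limma, adjusted p = 0.000145) and -0.52 in SCI+CDTX against SCI+Saline (limma, adjusted p = 0.0456). The latter call was lost without any single array of either group except SCI+Saline 1, for example at -0.42 without SCI+CDTX 3 (limma, adjusted p = 0.182), without Sham+Saline 2, and after median scaling (-0.21; limma, adjusted p = 0.439). ILMN_3102825, which the probe table assigns to another Ncam1 transcript, was called in no comparison and gave 0.13 in SCI+Saline against Sham+Saline (limma, adjusted p = 0.525). It was detected on 14 of 15 arrays but was dim, with group means of 4.77 to 4.99, so a difference between the transcripts cannot be read from it.

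**Figure D4:**
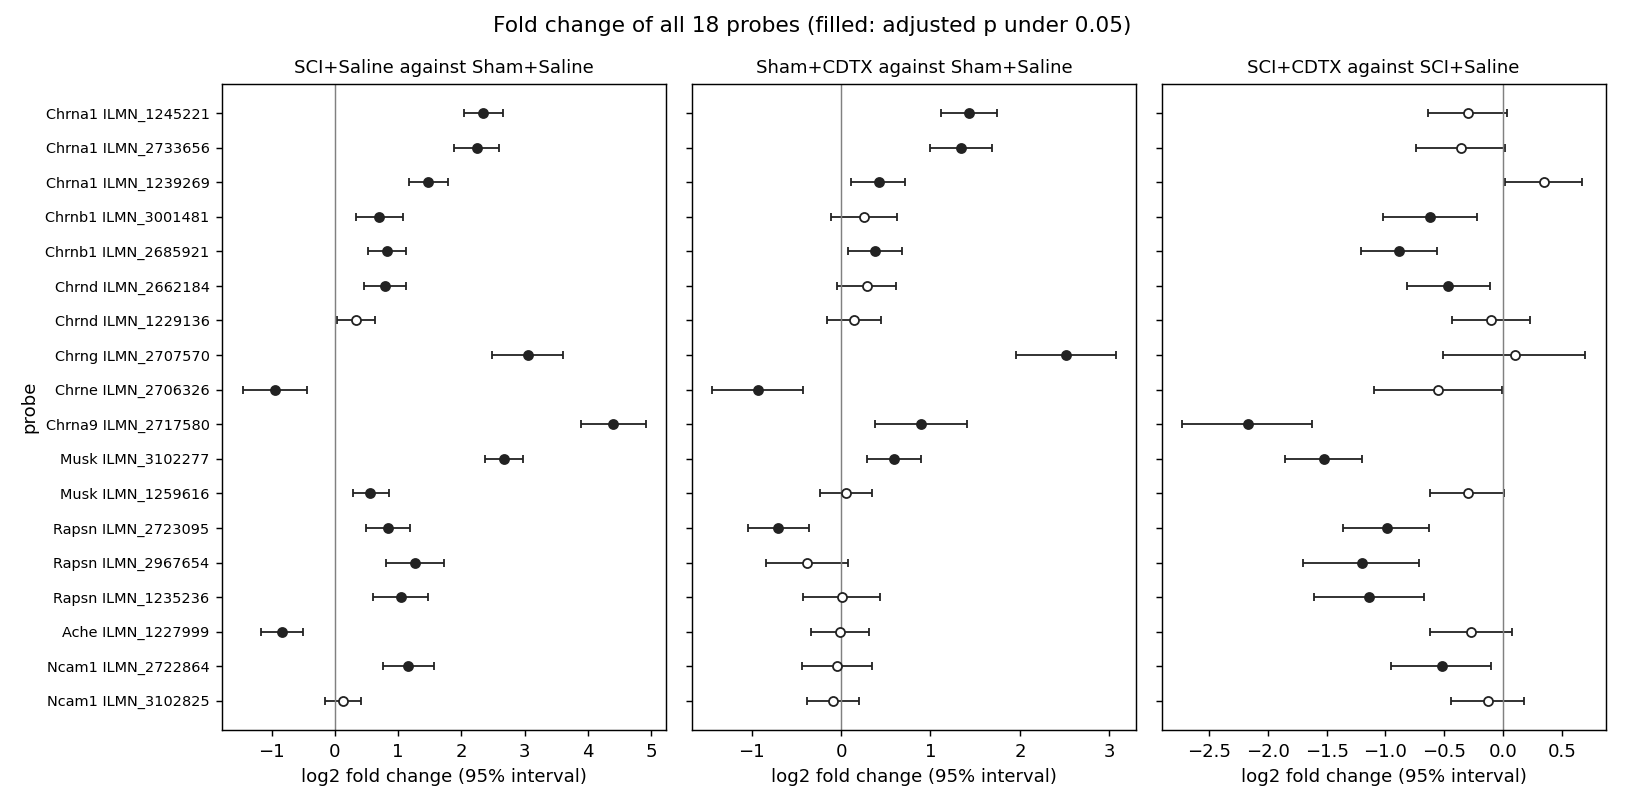
Log2 fold change (horizontal axis) with its 95% interval for all 18 probes (vertical axis) in SCI+Saline against Sham+Saline, Sham+CDTX against Sham+Saline and SCI+CDTX against SCI+Saline. Filled points have an adjusted p under 0.05, which holds for 16, 9 and 9 probes. The first 2 comparisons share the Sham+Saline arrays, and in the third no probe is called higher.

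Part of the set was lower in SCI+CDTX than in SCI+Saline. Between SCI+CDTX and SCI+Saline, 9 of 18 probes were called lower and 0 higher (limma; background 22.5% lower and 20.4% higher, 42.9% in all), and the median log2 fold change was -0.5 against -0.05 over all probes. The total of 9 of 18 was close to the 42.9% of all probes, so the set differed from them in direction. At an unadjusted p under 0.05, 1 probe was higher, Chrna1 ILMN_1239269, and 10 were lower, with no share of all probes given at that threshold. After median scaling 1 was called higher, the same Chrna1 probe, and 9 lower. The probes called lower over 15 arrays with quantile normalization belonged to Chrna9, Musk, Rapsn, Chrnb1, Chrnd and Ncam1, and after median scaling those of Chrnd (limma, adjusted p = 0.0966) and Ncam1 (limma, adjusted p = 0.439) were not called while both overlapping Chrna1 probes were (limma, adjusted p = 0.0227 and 0.0176). In sham muscle the same injection gave 7 probes higher and 2 lower (background 23.1% and 25.8%), so the total of 9 of 18 was close to the background of 48.9%. After median scaling the split was 10 higher and 0 lower, and the median of all probes moved from -0.04 to 0.32, so directions here are relative to the middle of all probes. The higher ones were those of Chrng, Chrna1 (3 probes), Chrna9, Musk and Chrnb1, and the lower ones those of Chrne and Rapsn. With the probe difference score 4 remained called, 3 of Chrna1 and 1 of Chrng, with Chrng at 4.39 (limma, adjusted p = 0.000632) and Chrna1 ILMN_1245221 at 1.97 (limma, adjusted p = 0.00279). Without Sham+CDTX 1, the call of Chrna1 ILMN_1239269 was lost (0.32; limma, adjusted p = 0.0913). The call of Chrnb1 ILMN_2685921 was lost without any of 7 of the 8 sham arrays, Sham+Saline 1 being the exception.

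The effect of CDTX in SCI muscle minus its effect in sham muscle was tested as an interaction. It was negative and called for 9 of 18 probes and positive for 0 (limma; background 11.6% and 12%, 23.6% in all), with a median of -0.79 against -0.01 over all probes. The largest were Chrna9 at -3.06 ± 0.36 (SE; limma, adjusted p = 1.71e-05), Chrng at -2.42 ± 0.39 (SE; limma, adjusted p = 0.000254) and Musk at -2.11 ± 0.21 (SE; limma, adjusted p = 4.5e-06). Chrna1 ILMN_1245221 followed at -1.73 ± 0.22 (SE; limma, adjusted p = 3.11e-05). The other called Chrna1 probe, ILMN_2733656, is a repeat reading of the same stretch. The third Chrna1 probe, ILMN_1239269, showed no called interaction (-0.07; limma, adjusted p = 0.85), so the Chrna1 probes disagree here too. At an unadjusted p under 0.05, 0 were positive and 10 negative, again with no share of all probes given. The call of Chrnb1 ILMN_3001481 (-0.88) was lost without SCI+CDTX 3 (-0.69; limma, adjusted p = 0.0726), and that of Chrnd ILMN_2662184 (-0.76) without SCI+CDTX 4 (-0.7; limma, adjusted p = 0.0654) or Sham+CDTX 4 (-0.64; limma, adjusted p = 0.0581). The patterns behind these values differ. Chrng and Chrna1 rose with CDTX in sham muscle and were not called changed by it in SCI muscle, whereas Chrna9 and Musk rose in sham muscle and fell in SCI muscle. With the probe difference score 3 of the 9 calls remained, Chrng at -4.05 (limma, adjusted p = 0.00233) and both overlapping Chrna1 probes at -2.23 and -1.96 (limma, adjusted p = 0.0062 and 0.022). Chrna9 was then at -0.93 (limma, adjusted p = 0.539) and Musk at -0.94 (limma, adjusted p = 0.221). Within groups the score varied mainly through SCI+CDTX 2, so these adjusted values lean on that array.

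**Figure D5:**
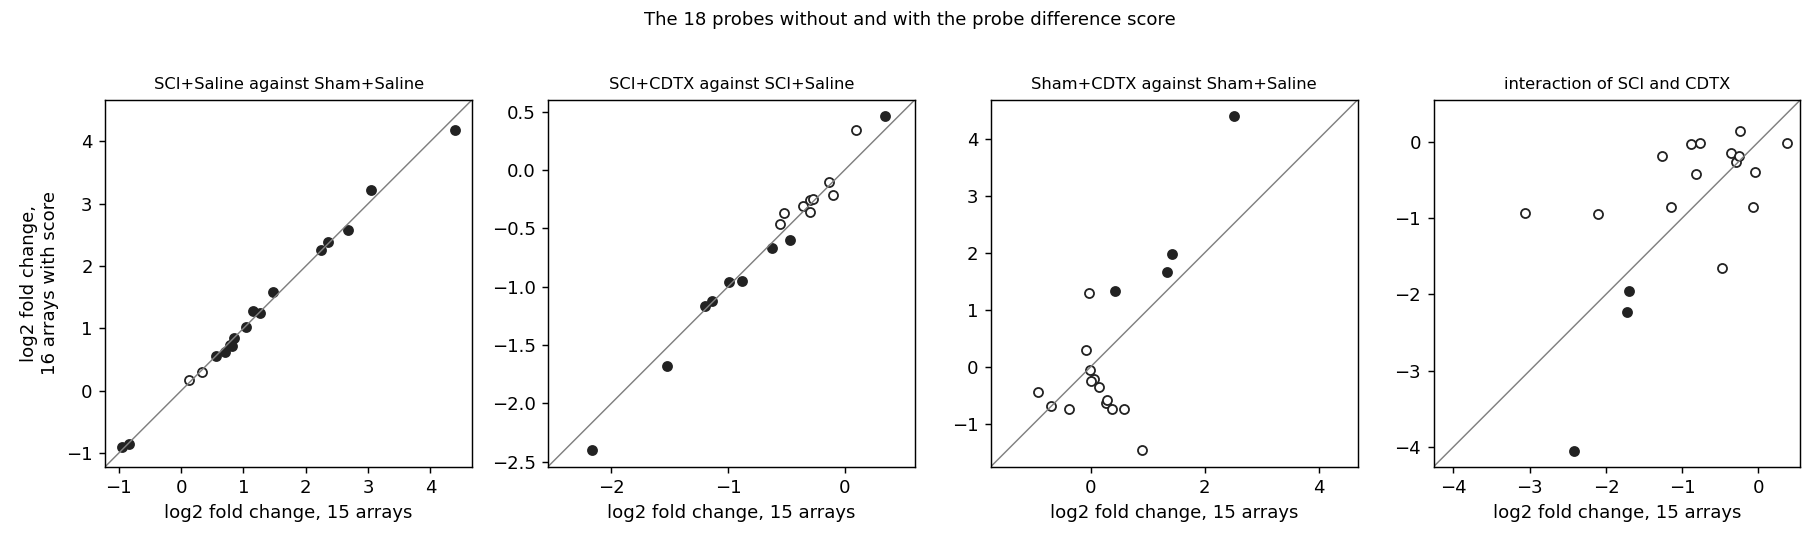
Log2 fold change of the 18 probes over 15 arrays (horizontal axes) against the value over 16 arrays with the probe difference score as covariate (vertical axes), in 4 comparisons; grey lines mark equality and filled points have an adjusted p under 0.05 with the score. Points follow the line in SCI+Saline against Sham+Saline and SCI+CDTX against SCI+Saline, and leave it in Sham+CDTX against Sham+Saline and in the interaction.

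SCI+CDTX was also set against both sham groups. Against Sham+CDTX, 7 probes were higher and 2 lower (background 14.9% each way, 29.8% in all), with Chrna9, all 3 Chrna1 probes, Musk, Rapsn and Ncam1 higher and Ache and Chrnb1 lower. This total of 9 fell to 5 without SCI+CDTX 1, Sham+CDTX 3 or Sham+CDTX 4 and to 2 with the probe difference score, the 2 being Chrna9 at 3.26 (limma, adjusted p = 0.00099) and Musk at 1.64 (limma, adjusted p = 0.00158). Against Sham+Saline, 7 were higher and 2 lower (background 23% and 23.6%), the total of 9 being near the 46.5% of all probes called. Chrng was higher by 3.15 (limma, adjusted p = 9.71e-08), Chrna1 ILMN_1245221 by 2.04 (limma, adjusted p = 2.16e-08) and Musk by 1.16 (limma, adjusted p = 6.33e-06). In the authors' deposited table, at their own difference p under 0.05, SCI+CDTX differed from SCI+Saline for 6 probes (1 higher, 5 lower), from Sham+CDTX for 8 (6 higher, 2 lower) and from Sham+Saline for 8 (7 higher, 1 lower). The share of all probes at that threshold is not given, so these counts cannot be read as particular to the set.

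Transcripts of other nicotinic subunits were looked for because Chrna9 is not a classical muscle subunit. All 10 genes of that list were on the array and 0 of them passed the detection filter. Among known activity-dependent regulators of the receptor genes, 16 of 18 passed. In SCI+Saline against Sham+Saline 11 of the 16 were higher and 1 lower (background 14.8% and 14.6%), with a median of 1.02 against -0.01 over all probes. Myog, the transcription factor myogenin, rose by 3.34 ± 0.19 (SE; limma, adjusted p = 4.11e-10), the stress gene Gadd45a by 2.65, the myogenic factor Myod1 by 2.62 and Hdac4, a histone deacetylase, by 1.61 (limma, adjusted p = 5.07e-05). In SCI+CDTX against SCI+Saline 2 were higher and 6 lower, a total of 8 of 16 where 42.9% of all probes were called, and the lower ones included Myf6 (-1.16; limma, adjusted p = 0.00029) and Myog (-1; limma, adjusted p = 0.000547). The interaction of Myog was -2.11 (limma, adjusted p = 3.91e-05). In sham muscle with CDTX 6 of the 16 were higher and 0 lower, a smaller share than the 48.9% of all probes called, with Myog at 1.11 (limma, adjusted p = 6.4e-05). After median scaling 11 were higher and 1 lower, and with the score 2 were higher and 1 lower.

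Genes of synapse assembly were called after SCI at about the share of all probes, and mostly lower with quantile normalization. Of 27 listed genes 23 were on the array and 19 passed the filter. In SCI+Saline against Sham+Saline 1 was higher and 5 lower (median -0.28, background 14.8% and 14.6%, 29.5% in all), which became 3 higher and 4 lower with a median of 0.05 after median scaling. Lynx1, a membrane-bound modulator of nicotinic receptors, gave -2.96 (limma, adjusted p = 1.98e-09), the synaptic laminin gene Lamb2 -1.4 (limma, adjusted p = 9.63e-06) and Agrn, for agrin, -1.17 (limma, adjusted p = 0.000808). The gene called higher was Utrn, for utrophin (limma, adjusted p = 0.038), which was detected on 0 of 4 Sham+Saline arrays and on 2 of 4 SCI+Saline arrays, so no fold is given. In SCI+CDTX against SCI+Saline 3 were higher and 4 lower, a total of 7 of 19 and below the 42.9% of all probes called, with Agrn higher by 1.07 (limma, adjusted p = 0.00184). In sham muscle CDTX gave 2 higher and 10 lower (background 23.1% and 25.8%), whereas median scaling gave 5 higher and 4 lower. With the score 0 genes were called higher and 1 was called lower.

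Markers of cell types in whole muscle are given beside these results. All 13 muscle fibre genes passed the filter, and their summed intensity was 16.81 to 17.2 on the log2 scale over all groups. In SCI+Saline against Sham+Saline 0 were higher and 3 lower (background 14.8% and 14.6%, 29.5% in all). CDTX gave 0 higher and 5 lower in SCI muscle and 2 higher and 4 lower in sham muscle, and SCI+CDTX against Sham+Saline gave 0 and 6. Background shares higher and lower were, in that order, 20.4% and 22.5%, 23.1% and 25.8%, and 23% and 23.6%. In both directions together, the fibre genes were called at or below the 42.9%, 48.9% and 46.5% of all probes. The brightest probes dominate the summed intensity. Single fibre genes fell while it held, such as Mb, for myoglobin, at -1.28 in SCI+CDTX against SCI+Saline (limma, adjusted p = 8.39e-06), chosen after its value was seen. Of 9 muscle precursor genes 8 were on the array and 5 passed. Their sum was 8.35 to 9.02 in Sham+Saline, 9.4 to 9.84 in SCI+Saline, 10.14 to 10.35 in Sham+CDTX and 9.91 to 10.06 in SCI+CDTX. The defining markers Pax7, Myf5 and Cdh15 were not among the 5, being either undetected or not on the array. Of 10 Schwann cell and nerve genes 9 were on the array and 7 passed, Sox10 and S100b not among them. They gave 0 higher and 1 lower in SCI+Saline against Sham+Saline (background 14.8% and 14.6%), where median scaling gave 2 higher and 0 lower. Between SCI+CDTX and Sham+CDTX 0 were higher and 3 lower (background 14.9% each way, 29.8% in all). Monocyte and macrophage genes, 7 of 8 passing, were 9.84 to 10.79 in Sham+Saline, 9.39 to 11.76 in SCI+Saline, 13.73 to 14.04 in Sham+CDTX and 13.49 to 14.05 in SCI+CDTX. All 7 of these were called higher with CDTX under either surgery, where 20.4% of all probes were called higher in SCI muscle and 23.1% in sham muscle. The part of these cell types in the CDTX results was not tested.

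Genes whose levels ran most alike over the 15 arrays were ranked among 10942 genes by Pearson's r, as a description. The arrays share their 4 groups and their slides, so much of any r reflects the groups. Nearest to Chrna1 were Cdkn1a (r = 0.98), Mt1 (0.977), Arhgdig (0.965), Ankrd1 (0.965) and Hrmt1l2 (0.964). Nearest to Chrna9 were Cpne2 (r = 0.98), Psmb3 (0.97), Fez1 (0.969), Psmb4 (0.965) and Krt18 (0.963). Within the set, Musk ran closest to Chrna9 (r = 0.976) and Chrng to Chrna1 (r = 0.956), while Chrne and Ache ran opposite to Chrna1 (r = -0.725 and -0.741).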

How the data were processed

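Total RNA from whole hamstring muscle of 16 samples was labelled and hybridised to Illumina BeadChips, 1 array per sample. The deposited table holds the mean bead intensity of each probe with no normalization and no background subtraction, with a detection p-value per probe and array, per the file headers (GenomeStudio 2011.1 per the submitters' processing notes). The authors' deposited final table gives group mean intensity after their own normalization and background subtraction, with a difference p-value whose correction is not stated, and was used as an alternative. Every per-sample column of the table was mapped to a sample (0 left out).

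Intensities of 15 arrays were corrected for background, quantile normalized and log2-transformed after an offset of 16 (neqc in limma 3.58.1, R 4.3.3; tables read with the data.table package, version 1.17.8), so fold changes of dim probes are understated. The model with 4 group means was fitted by lmFit, contrasts.fit and eBayes to 14763 probes, with Benjamini-Hochberg adjustment per comparison over all of them, and every adjusted p is limma's unless stated. Mean raw intensity per array was 230.5 to 373.1, and the number of arrays limits the precision. On simulated data 98% to 99.5% of 200 probes changed by 2 on the log2 scale were recovered, depending on the comparison, with 8 to 15 false calls. Smaller changes, like many of those reported here, were not simulated, so their recovery is not known. The simulation drew independent noise after normalization. It did not cover slide effects or normalization where many probes change, so the number of false calls in the real comparisons is not known.

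The members were all probes of the 10 symbols, and named genes of the other lists were the called genes with the largest fold changes in SCI+Saline against Sham+Saline and in SCI+CDTX against SCI+Saline, with Hdac4 and Mb named after their values were seen. The brightest detected probe stood for a gene of a list. Members and lists were chosen with earlier results of these data known. The build of the probe annotation is not named, so only chromosomes are given from it. Alternatives comprised 13 settings and leaving out each of 15 arrays.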

Additional observations from a re-analysis of the deposited data

Results flagged for a closer look

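Probes of 7 genes were singled out because the effect of CDTX differed between SCI and sham muscle by the interaction test. These were 9 of the 18 probes, where 23.6% of all probes were called, 11.6% of them lower and 12% higher. Most of these calls were lost with the probe difference score. The differences were -1.73 and -1.7 for the overlapping Chrna1 probes, -0.88 and -1.26 for the Chrnb1 probes, -0.76 for Chrnd ILMN_2662184, -2.42 for Chrng, -3.06 for Chrna9, -2.11 for Musk ILMN_3102277 and -1.15 for Rapsn ILMN_1235236, and each lies below 0. Other probes of these genes were not called. They gave -0.07 for Chrna1 ILMN_1239269, -0.24 for Chrnd ILMN_1229136 and -0.36 for Musk ILMN_1259616. Rapsn ILMN_2723095 gave -0.29 and ILMN_2967654 gave -0.82.

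In 3 of 72 checks of a probe within a group of 4 arrays, a single array stood far from the others, where chance gives about 1 in 20. Chrnb1 ILMN_3001481 was at 10.41 in SCI+Saline 2 against 10.91 to 11.02 in the other SCI+Saline arrays. Chrnd ILMN_1229136 was at 4.66 in Sham+CDTX 3 against 4.35 to 4.38, and Chrne ILMN_2706326 at 6.25 in Sham+CDTX 2 against 5.75 to 5.82.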

How the results depend on the processing

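The 16 probes called in SCI+Saline against Sham+Saline remained 16 on leaving out each array in turn. The other counts of 9 ranged over 6 to 11 in SCI+CDTX against SCI+Saline, 7 to 9 in Sham+CDTX against Sham+Saline, 5 to 10 in SCI+CDTX against Sham+CDTX, 8 to 9 in SCI+CDTX against Sham+Saline and 8 to 10 in the interaction. With the probe difference score they were 4 in Sham+CDTX against Sham+Saline, 2 in SCI+CDTX against Sham+CDTX and 3 in the interaction. Among values called with or without the alternative, signs turned with the score in Sham+CDTX against Sham+Saline for Chrnb1 ILMN_2685921 (-0.75), Chrna9 (-1.46) and Musk ILMN_3102277 (-0.74), and in SCI+CDTX against Sham+CDTX for Chrnb1 ILMN_2685921 (0.52) and Ncam1 ILMN_2722864 (-0.38), none of the 5 called. With median scaling such signs turned in Sham+CDTX against Sham+Saline for Rapsn ILMN_2723095 (0.03), Ache (0.69) and Ncam1 ILMN_2722864 (0.75), and in SCI+CDTX against Sham+Saline for Chrnb1 ILMN_2685921 (0.58) and Rapsn ILMN_2723095 (0.51) and ILMN_1235236 (0.63). The cause was not tested. Median scaling moved the median of all probes by over 0.1 in 5 of the 6 comparisons, to as much as 0.32. Over 27 alternatives or fewer per probe and comparison, 2693 values kept their side of the threshold, 85 lost a call, 31 gained one and 11 turned sign with a call on at least one side. Of the 2693, 67 changed sign while called under neither setting, 14 of them with the score and 6 with median scaling. The alternatives for Chrng minus Chrne were chosen after seeing the data.

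Replicate numbers did not pair the samples: deviations of same-numbered arrays correlated at -0.271 to 0.377 over 21 pairs, 3 of them over 0.1. With the replicate number as a block, 7 probes were called in SCI+CDTX against SCI+Saline, 8 in SCI+CDTX against Sham+CDTX, 16 in SCI+Saline against Sham+Saline and 9 in each of the other comparisons. As with the counts on leaving out an array, the share of all probes under this setting is not given. The changed counts cannot be read as particular to the set. Signal near background limits both Chrnd probes and the dimmer Musk probe, and low signal limits Ncam1 ILMN_3102825.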
